A study of Homo sapiens with 9 samples.

Results

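Nuclear genes of oxidative phosphorylation were followed in the human breast cancer line MDA-MB-231, which lacks the estrogen receptor, after knockdown of MTDH. Members were all genes whose array symbol begins with the name stem of a subunit of respiratory complex I (NDUFA, NDUFB, NDUFC, NDUFS, NDUFV), complex II (SDH), complex III (UQCR), complex IV (COX4 to COX8) or ATP synthase, called complex V here (ATP5). A core-protein gene of complex III and the NDUFAF assembly factors were left out by that rule. The rule gave 92 genes with 141 probes. Of these, 80 encode subunits, and the other 12 share only the name stem: 4 assembly factors of complex II, 6 pseudogenes, the antisense gene NDUFB2-AS1 and the ATP synthase inhibitor ATP5IF1. A probe was kept when it was detected on at least 3 of the 9 deposited arrays, and each gene was read on its brightest kept probe. That left 83 members, 72 of them subunits, of 12239 genes measured in all. No subunit encoded by mitochondrial DNA was among them.

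The design sets cells after each of 2 siRNAs beside untreated cells. In the WT knockdown, cells were transfected for 24 h with 200 pmol of an siRNA named for wild-type MTDH, and in the isoform knockdown with the same amount of an siRNA named for an MTDH isoform. An siRNA is a short double-stranded RNA that directs the cell to degrade a matching messenger RNA, and MTDH encodes metadherin, a protein linked to metastasis. The control cells were untreated, so effects of transfection, or of separate handling, cannot be told apart from those of lower MTDH in any comparison with control. Nothing states whether replicates were separate cultures, so p-values measure the spread between these arrays, which may be technical. Values were background-corrected, quantile-normalized log2 signals of 3 WT knockdown, 3 isoform knockdown and 2 control arrays. Control replicate 2 was left out because it equalled the mean of the other 2 controls. Between 20295 and 21761 of 47231 probes were detected on each array used. The MTDH probe read 9.59, 9.79 and 9.90 on the WT knockdown arrays, 9.87, 9.75 and 9.68 on the isoform knockdown arrays, and 10.71 and 10.69 in control cells. Every knockdown array lay below both controls, and the knockdowns overlapped. Relative to control, MTDH stood at 52.1% after the WT siRNA and at 52.3% after the isoform siRNA. The siRNAs differed from each other at this probe by 0.00 ± 0.10 (log2, SE), and whether the probe reads the isoform was not tested. Of 7 mesenchymal and basal markers, VIM, CD44, AXL, MSN and CAV1 were detected on every array, and SPARC on none. ZEB1 was detected on 0 of 6 knockdown arrays and on 2 of 2 control arrays, and its signal fell by 0.81 in the WT knockdown and by 0.54 in the isoform knockdown. Its probe was kept only through the controls, with control replicate 2 counted, so the filter itself favoured a fall. Of 7 luminal and epithelial markers, ESR1, PGR, CDH1 and ESRP1 were detected on no array, and EPCAM, KRT19 and GATA3 on every array. Of the leukocyte markers CD3E was detected on no array and PTPRC on 1 isoform knockdown array, while CD14 was detected on all. The mesenchymal and basal markers themselves moved, with 4 of 6 measured lower in the WT knockdown and 2 of 6 in the isoform knockdown, ZEB1 being counted in both. EPCAM fell by 0.65 after the WT siRNA and by 0.58 after the isoform siRNA. The fibroblast marker PDGFRB fell by 1.32 and CD14 rose by 0.39 after the WT siRNA. LUM, another fibroblast marker, rose by 0.60 after the isoform siRNA, with arrays at 5.34, 4.77 and 5.50 against 4.59 and 4.61 in control cells. Its probe was detected on 3 WT knockdown, 2 isoform knockdown and 0 control arrays, so the filter itself favoured a rise. Of the other fibroblast markers, PDGFRA was detected on no array used and DCN passed in neither knockdown. The part of these markers in the results was not tested.

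In oxidative phosphorylation, complexes I and II take electrons from NADH and succinate and pass them to ubiquinone. Complex III moves them on to cytochrome c and complex IV to oxygen, while complexes I, III and IV pump protons across the inner mitochondrial membrane. ATP synthase lets the protons flow back through a rotating ring and makes ATP. Most subunits are encoded in the nucleus, only some of them form the catalytic core, and the accessory ones serve assembly and stability. Tumour cells often make much of their ATP by glycolysis but commonly keep a working respiratory chain.

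Among complex I genes, falls past the threshold outnumbered rises after both siRNAs. In these bulk samples fewer cells of a kind and less RNA per cell cannot be told apart. In the WT knockdown 13 of the 83 measured members were higher and 28 lower than in control cells (limma, Benjamini-Hochberg adjusted p under 0.05 over all kept probes), or 15.7% and 33.7%. Among all measured genes 26.6% were higher and 29.7% lower in this comparison. WT knockdown and control arrays did not overlap for 61 members, or for 72.9% of all genes. In the isoform knockdown 14 members were higher and 25 lower, or 16.9% and 30.1%, against 19.9% and 24.1% of all genes, and arrays did not overlap for 59 members, against 67.4% of all genes. The median log2 change over members was -0.12 after the WT siRNA and -0.08 after the isoform siRNA, and the median of all genes was -0.02 and -0.03 in the same comparisons. Per array, the members' median change from control was -0.12, -0.10 and -0.15 on the WT knockdown arrays and -0.09, -0.06 and -0.09 on the isoform knockdown arrays. Both comparisons use the same 2 control arrays.

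The split depended on the scaling between arrays. With arrays scaled to a common median in place of quantile normalization, the median of all genes moved to -0.24 for the WT siRNA and to -0.20 for the isoform siRNA. The members then gave 2 higher and 43 lower in the WT knockdown, where 12.9% of all genes were higher and 38% lower. In the isoform knockdown they gave 3 higher and 27 lower, where 8.87% of all genes were higher and 29.4% lower. The members' median differed from that of all genes by -0.20 in the WT knockdown and by -0.12 in the isoform knockdown, against -0.10 and -0.05 with quantile normalization. The rises of NDUFA6 and SDHAP1 in the WT knockdown, and of SDHC, ATP5MC2 and SDHAP1 in the isoform knockdown, were called under both scalings.

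**Figure D1:**
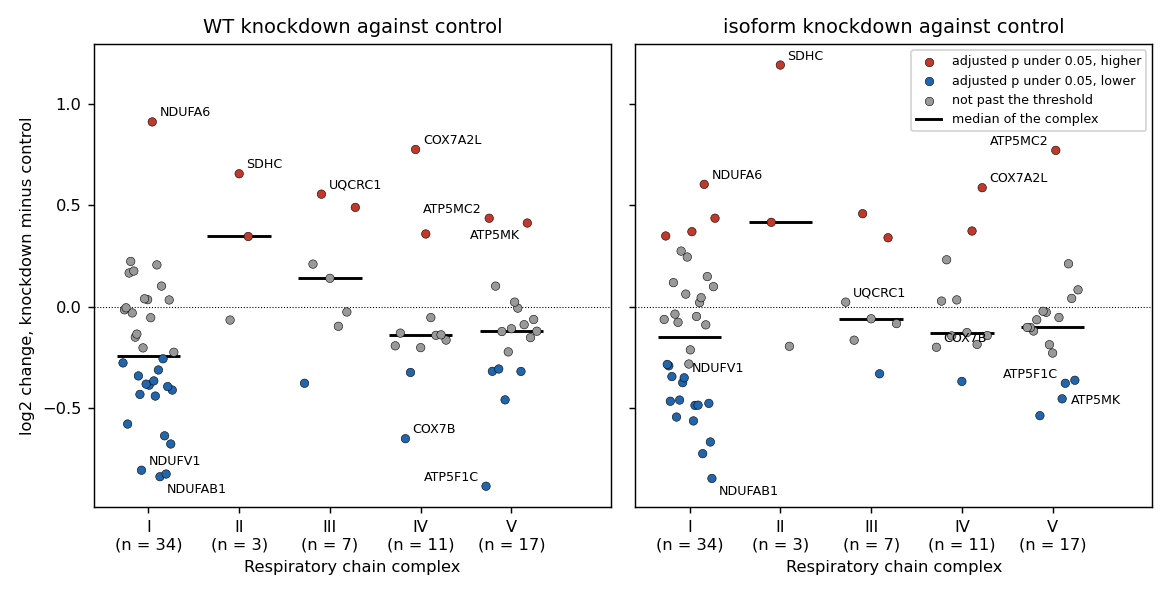
Log2 change of each measured subunit gene (points) from control, by complex, in the WT knockdown (left) and the isoform knockdown (right); bars are the median of a complex and colour gives the call. Complex I has 17 subunits lower and 1 higher in the WT knockdown, and 15 lower and 4 higher in the isoform knockdown.

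**Figure D2:**
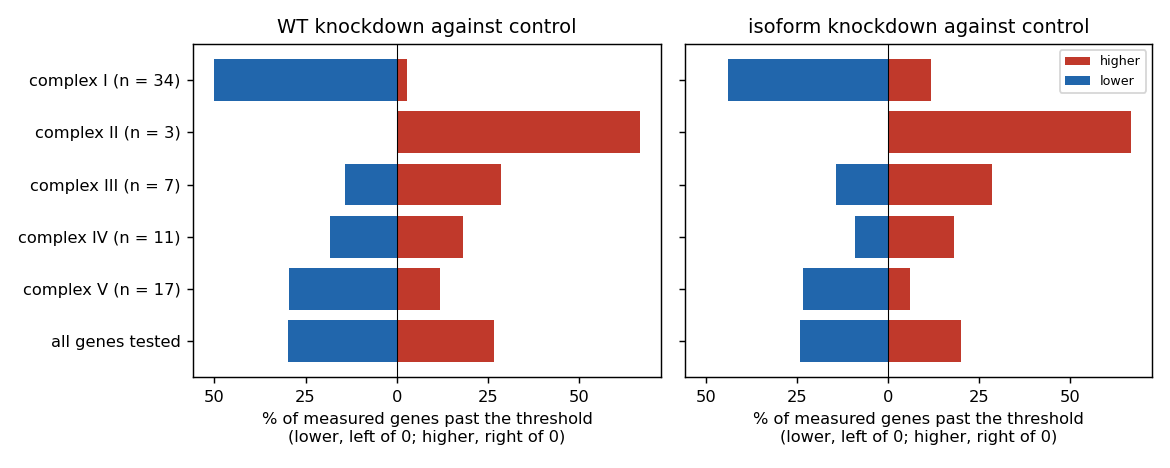
Percentage of the measured subunit genes of each complex, and of all 12239 genes tested, past the threshold in each knockdown; falls are drawn left of 0 and rises right of 0. Falls reach 17 of 34 complex I genes in the WT knockdown, where 29.7% of all genes fell, and 44.1% in the isoform knockdown, where 24.1% fell, and complex II has only 3 measured genes.

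Promoter windows were read for 66 of the 80 subunit genes, from 250 bases before to 50 after each start, from RefSeq on GRCh38.p14. Nuclear respiratory factor 1, ETS-family factors such as GABP, and YY1 are known regulators of these genes, and their motifs were searched on both strands as GCGC followed by any 2 bases and GCGC, as CCGGAAG and as AAGATGG. The first was in 17 windows (25.8%), the ETS motif in 19 (28.8%) and the YY1 motif in 14 (21.2%). Of the windows of all genes with a kept probe, 15.8%, 19% and 7.69% held them, and of the 60 windows of subunits with a kept probe 26.7%, 31.7% and 23.3%. The ETS motif was in 4 of 22 windows of subunits lower in the WT knockdown, 3 of 8 higher and 12 of 30 not called there. In the isoform knockdown it was in 3 of 19 lower, 2 of 10 higher and 14 of 31 not called. It was in 5 of 32 windows of complex I and in 14 of 34 of complexes II to V. The NRF1 motif was in 5 of 22 windows lower in the WT knockdown and 4 of 19 in the isoform knockdown, and the YY1 motif in 5 of 22 and 5 of 19. These are descriptions of letters in a window and were not tested.

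The 250 bases before the start are shown, 5′ to 3′ on the gene's strand, for members that moved in different ways, with matches to the NRF1 and ETS motifs in capitals. NDUFAB1 (chr16:23596317-23596566, minus strand) was lower in both knockdowns and COX7A2L (chr2:42361218-42361467, minus strand) higher in both, and neither stretch holds a match. ATP5F1C (chr10:7787927-7788176, plus strand) fell further in the WT knockdown and UQCRC1 (chr3:48609647-48609896, minus strand) was higher there only, and each holds 1 NRF1 match. ATP5MK (chr10:103396476-103396725, minus strand) moved in opposite directions and holds an ETS match on each strand that overlap. ATP5ME (chr4:674277-674526, minus strand), an ATP synthase membrane subunit that passed in neither knockdown, holds 2 NRF1 matches.
NDUFAB1: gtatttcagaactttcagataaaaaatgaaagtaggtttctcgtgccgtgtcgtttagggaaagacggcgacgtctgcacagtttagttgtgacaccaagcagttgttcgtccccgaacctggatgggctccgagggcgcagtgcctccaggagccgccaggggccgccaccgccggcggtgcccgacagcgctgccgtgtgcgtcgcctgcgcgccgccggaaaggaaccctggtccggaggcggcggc
ATP5F1C: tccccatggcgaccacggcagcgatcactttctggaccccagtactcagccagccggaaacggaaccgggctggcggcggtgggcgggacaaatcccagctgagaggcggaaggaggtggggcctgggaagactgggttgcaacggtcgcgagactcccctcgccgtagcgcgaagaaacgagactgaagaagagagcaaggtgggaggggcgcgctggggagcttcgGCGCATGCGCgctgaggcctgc
COX7A2L: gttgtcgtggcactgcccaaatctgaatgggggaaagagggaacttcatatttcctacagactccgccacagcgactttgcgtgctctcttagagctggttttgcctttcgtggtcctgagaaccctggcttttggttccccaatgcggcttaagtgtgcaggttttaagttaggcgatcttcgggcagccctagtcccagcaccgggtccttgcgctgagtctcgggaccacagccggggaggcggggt
UQCRC1: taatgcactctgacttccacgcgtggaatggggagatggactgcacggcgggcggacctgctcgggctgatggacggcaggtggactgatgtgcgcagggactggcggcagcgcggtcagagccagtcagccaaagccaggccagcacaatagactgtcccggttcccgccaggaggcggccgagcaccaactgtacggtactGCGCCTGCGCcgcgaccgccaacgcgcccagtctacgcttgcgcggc
ATP5MK: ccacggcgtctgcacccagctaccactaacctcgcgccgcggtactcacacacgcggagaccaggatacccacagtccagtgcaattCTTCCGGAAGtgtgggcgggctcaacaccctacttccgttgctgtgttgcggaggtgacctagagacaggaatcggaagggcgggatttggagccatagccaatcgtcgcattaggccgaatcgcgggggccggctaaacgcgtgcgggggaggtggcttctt
ATP5ME: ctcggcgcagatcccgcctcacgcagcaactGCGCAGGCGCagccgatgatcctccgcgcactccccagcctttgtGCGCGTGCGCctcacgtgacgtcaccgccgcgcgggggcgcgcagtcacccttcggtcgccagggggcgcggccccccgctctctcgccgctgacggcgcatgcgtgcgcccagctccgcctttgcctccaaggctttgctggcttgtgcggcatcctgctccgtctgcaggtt

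Complex I, the NADH dehydrogenase, had 34 measured subunits. In the WT knockdown 17 were lower and 1 was higher, with a median log2 change of -0.24. In the isoform knockdown 15 were lower and 4 higher, with a median of -0.15. Falls made up 50% and 44.1%, against 29.7% and 24.1% of all genes. Without control replicate 3 the counts of complex I were 9 lower and 1 higher in the WT knockdown, then 8 lower and 4 higher in the isoform knockdown. Of all genes 23.7% were then lower and 21.2% higher in the WT knockdown, and 15.4% and 13.8% in the isoform knockdown. The 9 of 34 falls in the WT knockdown were thus near the share of all genes. The 38 measured subunits of complexes II to V had 8 lower and 8 higher in the WT knockdown, and 6 lower and 7 higher in the isoform knockdown. With median scaling complex I had 20 lower and 1 higher in the WT knockdown, then 16 lower and 0 higher in the isoform knockdown, and complexes II to V had 19 lower and 0 higher, then 7 lower and 2 higher. The difference between the complexes was not tested.

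Among the core subunits of the matrix arm, which bind NADH and carry the flavin and iron-sulfur clusters, 4 of 6 were lower in the WT knockdown, against 6 of 6 in the isoform knockdown. Among all genes 29.7% and 24.1% were lower. Most of the isoform knockdown calls were lost without 1 or the other control array, as given below by gene. The median change of these core subunits was -0.35 after the WT siRNA and -0.41 after the isoform siRNA. It was -0.385 and -0.387 without control replicate 1, and -0.31 and -0.43 without control replicate 3. NDUFV1, the flavoprotein that oxidises NADH, read 9.75, 9.64 and 9.76 on the WT knockdown arrays, 10.09, 10.25 and 10.18 on the isoform knockdown arrays, and 10.54 and 10.50 in control cells. The 3 groups did not overlap, with the WT knockdown lowest and the isoform knockdown between it and control. NDUFV1 fell by 0.80 ± 0.09 (SE) in the WT knockdown (adjusted p = 9.6e-05), and in the isoform knockdown by 0.35 ± 0.09 (adjusted p = 0.0146), and the second call was lost without either control array. NDUFV2, its partner in the same electron input module, read 10.77, 11.07 and 10.95 on the WT knockdown arrays, 10.81, 10.59 and 10.72 on the isoform knockdown arrays, and 11.37 on both control arrays. All knockdown arrays lay below control, and the knockdowns overlapped. NDUFV2 fell by 0.44 ± 0.11 in the WT knockdown (adjusted p = 0.00915), and in the isoform knockdown by 0.67 ± 0.11 (adjusted p = 0.00165), and these calls held under every alternative tried. NDUFS8, which carries iron-sulfur clusters near the quinone site, fell by 0.64 ± 0.10 in the WT knockdown and by 0.48 ± 0.10 in the isoform knockdown, where the call was lost without control replicate 1. NDUFS1, the largest subunit, changed by -0.22 ± 0.14 in the WT knockdown, which did not pass, and fell by 0.54 ± 0.14 in the isoform knockdown, a call lost without control replicate 3. NDUFS3, another core protein of this arm, changed by 0.03 ± 0.09 in the WT knockdown and fell by 0.28 ± 0.09 in the isoform knockdown, where the call was lost without any single control or isoform array. NDUFS7 was lower in both, by 0.26 ± 0.09 in the WT knockdown and by 0.29 ± 0.09 in the isoform knockdown, and both calls were lost without control replicate 3 and without several knockdown arrays.

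NDUFAB1, the mitochondrial acyl carrier protein that is a subunit of both arms of complex I, fell in both knockdowns. It read 11.03, 11.17 and 11.23 on the WT knockdown arrays, 11.27, 11.07 and 11.07 on the isoform knockdown arrays, and 11.98 and 11.99 in control cells. Every knockdown array lay below both controls, and the knockdowns overlapped. The fall was 0.84 ± 0.10 in the WT knockdown (adjusted p = 0.000155), and in the isoform knockdown 0.85 ± 0.10 (adjusted p = 0.000322). Its signal stood at 56.0% of control after the WT siRNA and at 55.7% after the isoform siRNA. The isoform knockdown differed from the WT knockdown by -0.01 ± 0.09 (adjusted p = 0.956).

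Accessory subunits of complex I fell more often than they rose in the WT knockdown. In the matrix arm 3 of 7 were lower and 1 higher in the WT knockdown, and 2 lower and 1 higher in the isoform knockdown. In the membrane arm 9 of 20 were lower and 0 higher in the WT knockdown, and 6 lower and 3 higher in the isoform knockdown. Membrane-arm falls made up 45% and 30%, where 29.7% and 24.1% of all genes were lower and 26.6% and 19.9% higher. Without control replicate 3 fewer of these falls were called, and their share was no larger than that of all genes in either knockdown. In the isoform knockdown the membrane-arm median was -0.01, and that of all genes -0.03. NDUFA3, a small membrane-arm subunit, read 10.83, 10.73 and 10.71 on the WT knockdown arrays, 11.09, 11.12 and 11.08 on the isoform knockdown arrays, and 11.68 and 11.48 in control cells. The groups did not overlap. NDUFA3 fell by 0.82 ± 0.10 in the WT knockdown (adjusted p = 0.000106), and in the isoform knockdown by 0.49 ± 0.10 (adjusted p = 0.00365). NDUFB10 fell by 0.68 ± 0.09 in the WT knockdown and by 0.47 ± 0.09 in the isoform knockdown, and NDUFB5 by 0.43 ± 0.09 and 0.48 ± 0.09, both being membrane-arm subunits. NDUFS4, a matrix-arm subunit whose loss causes complex I deficiency, fell by 0.58 ± 0.10 in the WT knockdown and by 0.56 ± 0.10 in the isoform knockdown. NDUFV3, a small subunit beside the NADH site, fell by 0.39 ± 0.12 in the WT knockdown and by 0.72 ± 0.12 in the isoform knockdown. The first of these NDUFV3 calls was lost without control replicate 1, control replicate 3 or WT knockdown replicate 1, and the other 9 calls of these 5 genes held under every alternative tried.

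NDUFA6, an accessory subunit of the LYR family that binds the acyl carrier protein, was the only complex I subunit higher in the WT knockdown. It read 9.06, 8.97 and 8.85 on the WT knockdown arrays, 8.66, 8.56 and 8.75 on the isoform knockdown arrays, and 8.08 and 8.02 in control cells, with no overlap between groups. NDUFA6 rose by 0.91 ± 0.10 in the WT knockdown (adjusted p = 8.03e-05), and in the isoform knockdown by 0.60 ± 0.10 (adjusted p = 0.0016), and the second call was lost with median scaling. NDUFB11, a membrane-arm subunit encoded on the X chromosome, changed by 0.21 ± 0.09 in the WT knockdown, which did not pass, and rose by 0.44 ± 0.09 in the isoform knockdown, a call lost with median scaling. NDUFB1 changed by -0.05 ± 0.13 in the WT knockdown and rose by 0.37 ± 0.13 in the isoform knockdown, where the call was lost without control replicate 1, WT knockdown replicate 2 or any isoform array, with median scaling and with no filter on dim probes. NDUFA8 rose by 0.35 ± 0.10 in the isoform knockdown, a call lost without either control or without isoform knockdown replicate 2, and with median scaling. The 11 complex I subunits called in neither knockdown, NDUFS5, NDUFB8 and NDUFA1 among them, changed by -0.20 to 0.18 in the WT knockdown and by -0.21 to 0.27 in the isoform knockdown.

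**Figure D3:**
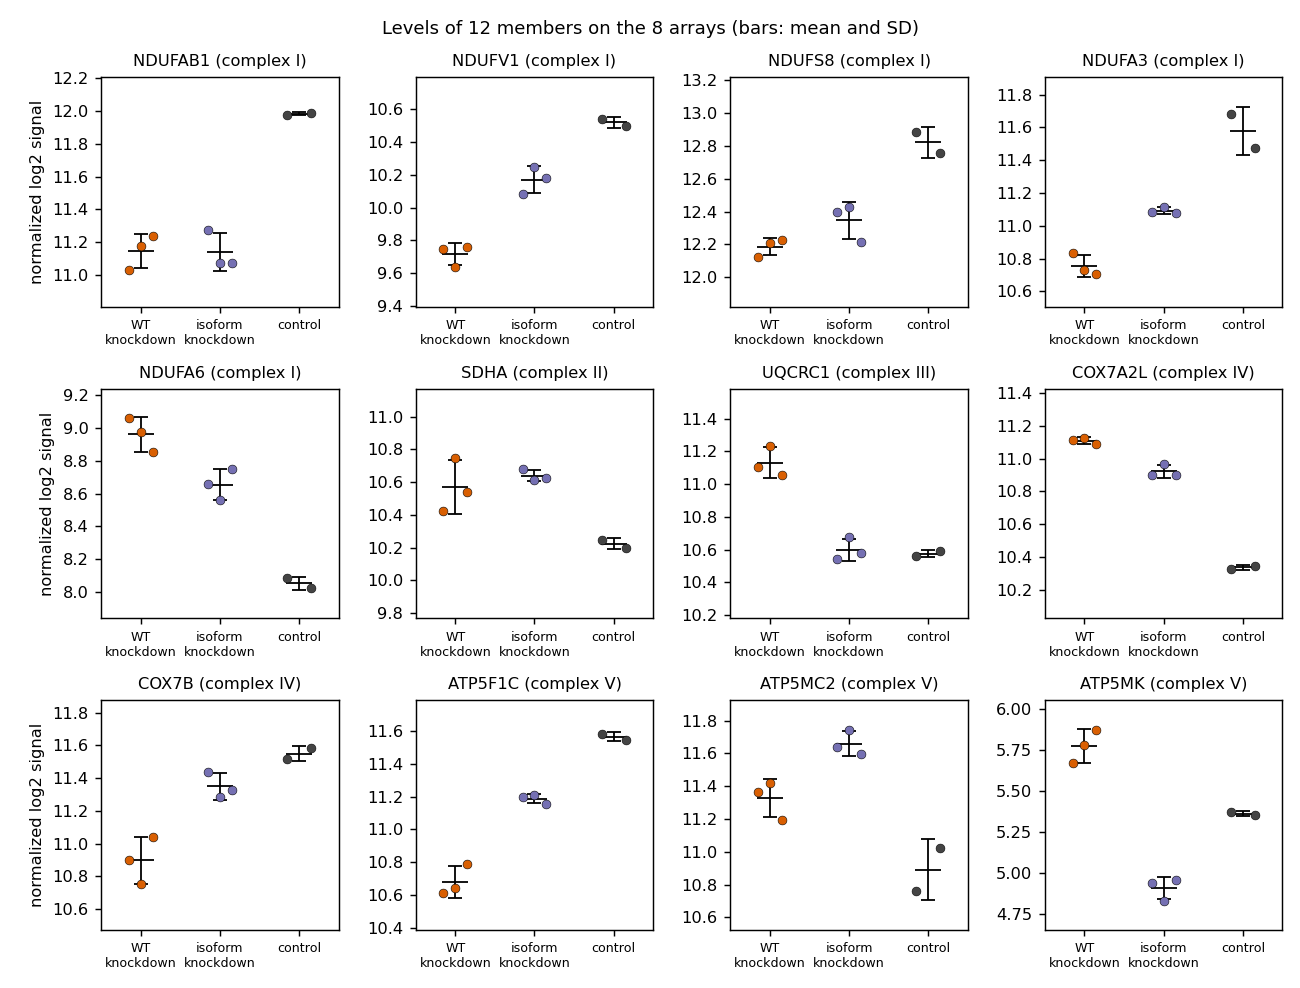
Normalized log2 signal (vertical axes, each panel its own range) of 12 members on the 3 WT knockdown, 3 isoform knockdown and 2 control arrays; points are arrays, and bars the mean and SD. NDUFAB1 lies between 11.03 and 11.27 on the knockdown arrays and near 11.98 in control cells, and ATP5MK lies above control in the WT knockdown and below it in the isoform knockdown.

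Complex II, succinate dehydrogenase, links the citrate cycle to the chain, and 3 of its subunits were measured. SDHA, the flavoprotein that oxidises succinate, read 10.42, 10.75 and 10.54 on the WT knockdown arrays, 10.68, 10.61 and 10.63 on the isoform knockdown arrays, and 10.25 and 10.20 in control cells. All knockdown arrays lay above control, and the knockdowns overlapped. SDHA rose by 0.35 ± 0.11 in the WT knockdown (adjusted p = 0.0233), and in the isoform knockdown by 0.42 ± 0.11 (adjusted p = 0.0137). Both calls were lost without either control array and with median scaling, under which the WT knockdown value was -0.01, and the first also without WT knockdown replicate 2. SDHA has near-identical pseudogene copies, so which copy its probes read is uncertain. SDHD, a membrane anchor, changed by -0.07 ± 0.16 in the WT knockdown and by -0.19 ± 0.16 in the isoform knockdown, and neither passed.

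SDHC, the other membrane anchor, was read in opposite directions by its 2 kept probes. The brighter probe read 8.82, 8.80 and 8.78 on the WT knockdown arrays, 9.20, 9.41 and 9.40 on the isoform knockdown arrays, and 8.03 and 8.26 in control cells. The groups did not overlap, with the isoform knockdown highest. On this probe SDHC rose by 0.65 ± 0.11 in the WT knockdown (adjusted p = 0.000741), and in the isoform knockdown by 1.19 ± 0.11 (adjusted p = 6.3e-05). The other probe, which the array annotation assigns to another RefSeq transcript, read 7.56, 7.51 and 7.53 on the WT knockdown arrays, 7.36, 7.38 and 7.46 on the isoform knockdown arrays, and 7.85 and 7.87 in control cells. Here the isoform knockdown was lowest and control highest, again without overlap. On the dimmer probe SDHC fell by 0.33 in the WT knockdown (adjusted p = 0.00926), and in the isoform knockdown by 0.47 (adjusted p = 0.00234). With the mean of both probes the rise in the WT knockdown was not called, nor was it with median scaling.

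**Figure D4:**
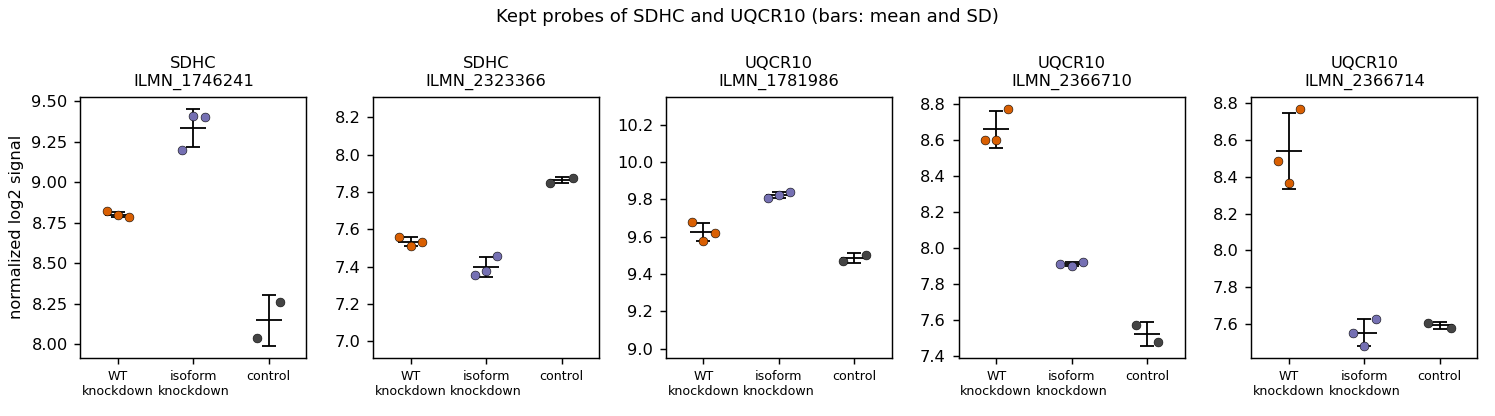
Normalized log2 signal of the 2 kept probes of SDHC and the 3 of UQCR10 on the 3 WT knockdown, 3 isoform knockdown and 2 control arrays; points are arrays, and bars the mean and SD. The SDHC probes move in opposite directions, and the UQCR10 probes differ in which knockdown is higher.

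In complex III, which oxidises ubiquinol, 2 of 7 measured subunits were higher and 1 lower in each knockdown, or 28.6% and 14.3%. Among all genes 26.6% were higher and 29.7% lower in the WT knockdown, and 19.9% and 24.1% in the isoform knockdown. UQCRC1, a core protein related to mitochondrial processing peptidases, read 11.11, 11.23 and 11.05 on the WT knockdown arrays, 10.54, 10.68 and 10.58 on the isoform knockdown arrays, and 10.56 and 10.59 in control cells. The WT knockdown lay above both other groups, which overlapped. UQCRC1 rose by 0.55 ± 0.09 in the WT knockdown (adjusted p = 0.000962), a call lost with median scaling, and changed by 0.02 ± 0.09 in the isoform knockdown (adjusted p = 0.87). UQCR11, a small subunit, rose by 0.49 ± 0.15 in the WT knockdown and by 0.46 ± 0.15 in the isoform knockdown. The first call was lost without control replicate 1, WT knockdown replicate 1 or WT knockdown replicate 3. The second was lost without control replicate 1, WT knockdown replicate 3, isoform knockdown replicate 1 or isoform knockdown replicate 2, and both were lost with median scaling. UQCR10, another small subunit, rose by 0.34 ± 0.08 in the isoform knockdown on its brightest probe, a call lost without either control and with median scaling. Of its 2 other probes, 1 rose by 1.14 in the WT knockdown and by 0.39 in the isoform knockdown, and 1 rose by 0.95 in the WT knockdown and changed by -0.04 in the isoform knockdown. UQCRHL, a copy of the hinge-protein gene UQCRH, fell by 0.38 ± 0.09 in the WT knockdown and by 0.33 ± 0.09 in the isoform knockdown, while UQCRH changed by -0.10 ± 0.08 and -0.06 ± 0.08. Both UQCRHL calls were lost without control replicate 3, and the second without control replicate 1 and isoform knockdown replicate 2. The copies are near-identical, so the assignment of either probe is uncertain.

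Complex IV, cytochrome c oxidase, has subunits that exist as general and tissue- or condition-specific isoforms. None of the 6 tissue or condition isoforms in the set, COX4I2, COX6A2, COX6B2, COX7A1, COX7B2 and COX8C, had a kept probe, and all their general counterparts did. Of the 11 measured genes, 2 were higher and 2 lower in the WT knockdown, and 2 higher and 1 lower in the isoform knockdown. In the WT knockdown that was 18.2% each way, against 26.6% of all genes higher and 29.7% lower. In the isoform knockdown it was 18.2% higher and 9.09% lower, against 19.9% and 24.1% of all genes. COX7A2L, which helps join complexes III and IV into supercomplexes, read 11.11, 11.13 and 11.09 on the WT knockdown arrays, 10.90, 10.97 and 10.90 on the isoform knockdown arrays, and 10.33 and 10.34 in control cells. The groups did not overlap. COX7A2L rose by 0.77 ± 0.08 in the WT knockdown (adjusted p = 6.29e-05), and in the isoform knockdown by 0.59 ± 0.08 (adjusted p = 0.000636), and both calls were lost with median scaling only. Its paralog COX7A2 changed by -0.20 ± 0.10 in the WT knockdown and by -0.14 ± 0.10 in the isoform knockdown, and neither passed. COX6A1, a general isoform, rose by 0.36 ± 0.09 in the WT knockdown and by 0.37 ± 0.09 in the isoform knockdown. With median scaling COX6A1 read -0.03 in the WT knockdown and the second call was lost, as it was without control replicate 3.

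COX7B, a small subunit of complex IV encoded on the X chromosome, read 10.90, 10.76 and 11.04 on the WT knockdown arrays, 11.44, 11.28 and 11.33 on the isoform knockdown arrays, and 11.52 and 11.58 in control cells. The WT knockdown lay below both other groups. COX7B fell by 0.65 ± 0.11 in the WT knockdown (adjusted p = 0.000809) and changed by -0.20 ± 0.11 in the isoform knockdown (adjusted p = 0.167). COX5B fell by 0.32 ± 0.09 in the WT knockdown and COX5A by 0.37 ± 0.09 in the isoform knockdown, both calls being lost without control replicate 1. COX4I1, the general isoform of an early-assembling subunit, changed by -0.13 ± 0.10 in the WT knockdown and by 0.23 ± 0.10 in the isoform knockdown, and neither passed. COX8A and COX6B1 changed by -0.14 ± 0.08 and -0.14 ± 0.10 in the WT knockdown and by -0.14 ± 0.08 and -0.19 ± 0.10 in the isoform knockdown, without passing.

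ATP synthase had 17 measured subunits, of which 2 were higher and 5 lower in the WT knockdown, and 1 higher and 4 lower in the isoform knockdown. The falls, 29.4% and 23.5%, were near the 29.7% and 24.1% of all genes. The rises, 11.8% and 5.88%, stood against 26.6% and 19.9% of all genes. ATP5F1C, the gamma subunit of the central stalk that turns inside the catalytic head, read 10.61, 10.64 and 10.79 on the WT knockdown arrays, 11.20, 11.21 and 11.16 on the isoform knockdown arrays, and 11.58 and 11.55 in control cells. The groups did not overlap. ATP5F1C fell by 0.88 ± 0.09 in the WT knockdown (adjusted p = 5.24e-05), and in the isoform knockdown by 0.38 ± 0.09 (adjusted p = 0.00986), where the call was lost without control replicate 1. ATP5F1B, the catalytic beta subunit, changed by -0.01 ± 0.09 in the WT knockdown and by -0.02 ± 0.09 in the isoform knockdown. ATP5F1A, the alpha subunit, fell by 0.32 ± 0.09 in the WT knockdown, a call lost without either control, and changed by -0.23 ± 0.09 in the isoform knockdown.

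The peripheral stalk, which holds the catalytic head still, fell in part. ATP5PF fell by 0.46 ± 0.09 in the WT knockdown (adjusted p = 0.00209) and changed by -0.10 ± 0.09 in the isoform knockdown, and its 3 probes were called lower in the WT knockdown. ATP5PO read 11.87, 11.94 and 11.84 on the WT knockdown arrays, 11.53, 11.65 and 11.52 on the isoform knockdown arrays, and 12.19 and 12.02 in control cells. The isoform knockdown arrays were lowest and the groups did not overlap. ATP5PO changed by -0.22 ± 0.10 in the WT knockdown (adjusted p = 0.0784) and fell by 0.54 ± 0.10 in the isoform knockdown (adjusted p = 0.00216). ATP5PD fell by 0.32 ± 0.10 in the WT knockdown, a call lost without either control, WT knockdown replicate 1 or WT knockdown replicate 2. ATP5PB fell by 0.36 ± 0.09 in the isoform knockdown, a call lost without control replicate 1.

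The 3 genes ATP5MC1, ATP5MC2 and ATP5MC3 encode the same ring protein with different import sequences, and they did not move together. ATP5MC2 read 11.37, 11.42 and 11.19 on the WT knockdown arrays, 11.64, 11.75 and 11.60 on the isoform knockdown arrays, and 10.76 and 11.02 in control cells, with no overlap. It rose by 0.44 ± 0.11 in the WT knockdown (adjusted p = 0.0104), a call lost without control replicate 1, with median scaling and with the mean of its kept probes (0.13, adjusted p = 0.243). After the isoform siRNA ATP5MC2 rose by 0.77 ± 0.11 (adjusted p = 0.000846). ATP5MC3 fell by 0.31 ± 0.09 in the WT knockdown, a call lost without control replicate 1 or WT knockdown replicate 2, and changed by -0.03 ± 0.09 in the isoform knockdown. ATP5MC1 changed by -0.12 ± 0.11 in the WT knockdown and by -0.19 ± 0.11 in the isoform knockdown, and neither passed.

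ATP5MK, a small membrane subunit linked to the pairing of ATP synthases, was the only member past the threshold in opposite directions in the knockdowns. It read 5.67, 5.78 and 5.87 on the WT knockdown arrays, 4.94, 4.83 and 4.95 on the isoform knockdown arrays, and 5.37 and 5.35 in control cells. Control lay between the knockdowns, and no groups overlapped. ATP5MK rose by 0.41 ± 0.10 in the WT knockdown (adjusted p = 0.00552) and fell by 0.45 ± 0.10 in the isoform knockdown (adjusted p = 0.00503). The isoform knockdown differed from the WT knockdown by -0.87 ± 0.09 (adjusted p = 0.000118). The probe was dim and detected on 3 of 3 WT knockdown, 2 of 3 isoform knockdown and 2 of 2 control arrays. The rise was lost with median scaling and the fall without background correction.

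Set against each other, the knockdowns differed at 24 members. In the isoform knockdown 13 members were higher and 11 lower than in the WT knockdown, or 15.7% and 13.3%, against 19% and 18.8% of all genes. The 2 knockdowns did not overlap for 40 members, and for 51.7% of all genes. The median difference over members was 0.02, and 0.01 over all genes. NDUFA13, a membrane-arm subunit of complex I also known as GRIM-19, read 9.67, 9.80 and 9.62 in the isoform knockdown, 9.08, 9.03 and 9.02 in the WT knockdown, and 9.27 and 9.64 in control cells. The WT knockdown lay below the other groups, which overlapped. NDUFA13 was higher in the isoform knockdown by 0.65 ± 0.11 (adjusted p = 0.0016), and its fall of 0.41 ± 0.12 from control in the WT knockdown was lost without control replicate 3.

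ATP5F1C was higher in the isoform knockdown than in the WT knockdown by 0.51 ± 0.08, NDUFV1 by 0.45 ± 0.08, COX7B by 0.45 ± 0.10, ATP5PF by 0.36 ± 0.08 and NDUFA3 by 0.34 ± 0.09, with calls that held under every alternative tried. COX4I1 was higher by 0.36 ± 0.09 and SDHC by 0.54 ± 0.10 on its brighter probe, a call lost with the mean of both probes. ATP5MJ, a small ATP synthase subunit, was higher by 0.36 ± 0.09, a call lost without WT knockdown replicate 2 and with median scaling. UQCRC1 was lower in the isoform knockdown by 0.53 ± 0.08 (adjusted p = 0.00137), again under every alternative. NDUFS3 was lower by 0.32 ± 0.08 and ATP5PO by 0.31 ± 0.09, and the ATP5PO call was lost without WT knockdown replicate 2, isoform knockdown replicate 1 or isoform knockdown replicate 3. NDUFA6 was lower by 0.31 ± 0.09 and NDUFV3 by 0.33 ± 0.10, with calls lost without any of 4 or 6 single arrays. With median scaling none of the falls of NDUFS3, ATP5PO, NDUFA6 and NDUFV3 between knockdowns was called, and the NDUFV3 call was also lost with no filter on dim probes, with the mean of its kept probes and with a mean-variance trend.

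**Figure D5:**
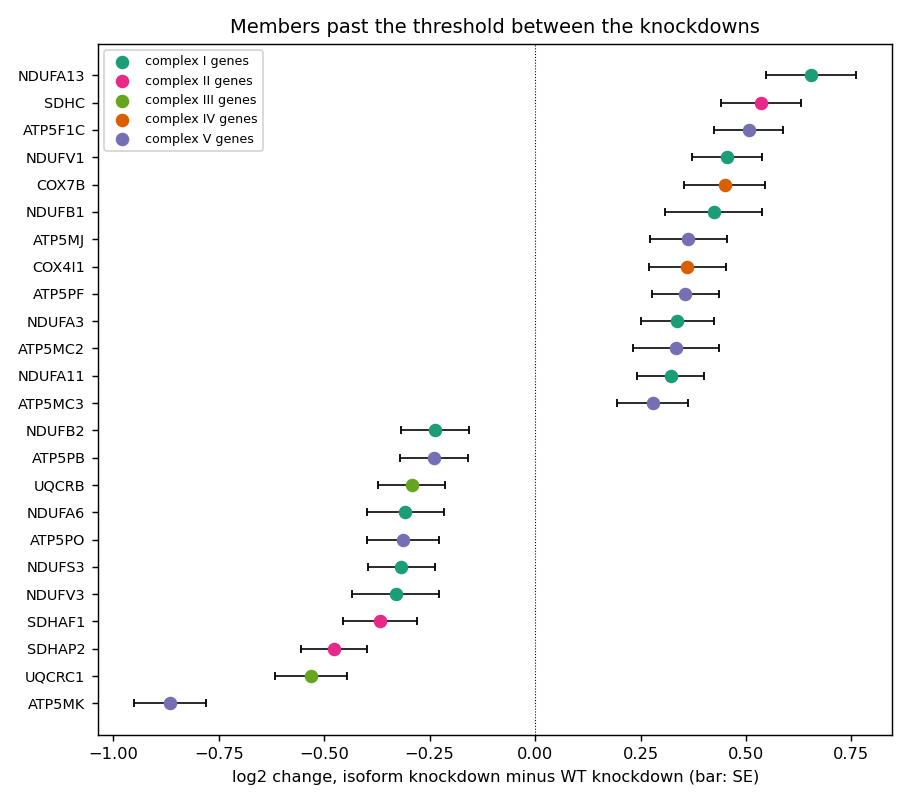
Log2 difference, isoform knockdown minus WT knockdown (horizontal axis; bars are SE), of the 24 members past the threshold between the knockdowns; colour gives the complex the gene belongs to or is named for. NDUFA13 is highest at 0.65 and ATP5MK lowest at -0.87.

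Of the 11 measured members that share only a name stem with the subunits, 4 were higher and 3 lower in the WT knockdown, then 3 higher and 4 lower in the isoform knockdown. Among all genes 26.6% were higher and 29.7% lower in the WT knockdown, and 19.9% and 24.1% in the isoform knockdown. SDHAF3, an assembly factor for the iron-sulfur subunit of complex II, read 8.12, 8.04 and 7.92 on the WT knockdown arrays, 8.00, 7.86 and 7.86 on the isoform knockdown arrays, and 9.04 and 8.93 in control cells. All knockdown arrays lay below control, and the knockdowns overlapped. SDHAF3 fell by 0.95 ± 0.10 in the WT knockdown (adjusted p = 5.48e-05), and in the isoform knockdown by 1.08 ± 0.10 (adjusted p = 7.46e-05). SDHAF4, which assists SDHA, fell by 0.58 ± 0.11 in the WT knockdown and by 0.59 ± 0.11 in the isoform knockdown. SDHAF2, which helps attach the flavin of SDHA, rose by 0.75 ± 0.10 in the WT knockdown and by 0.57 ± 0.10 in the isoform knockdown, with calls lost with median scaling. SDHAF1 rose by 0.42 ± 0.10 in the WT knockdown, a call lost without control replicate 1 and with median scaling, and was lower in the isoform knockdown than in the WT knockdown by 0.37 ± 0.09, a call lost with median scaling.

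The pseudogene SDHAP1 rose by 0.94 ± 0.16 in the WT knockdown and by 0.94 ± 0.16 in the isoform knockdown on the brightest of its 8 kept probes. SDHAP3 rose by 0.43 ± 0.10 in the WT knockdown, a call lost without control replicate 3, and by 0.51 ± 0.10 in the isoform knockdown, and both calls were lost with median scaling. SDHAP2 was lower in the isoform knockdown than in the WT knockdown by 0.48 ± 0.08, a call lost with median scaling, and its fall of 0.34 ± 0.09 from control was lost without control replicate 1. UQCRBP1, a pseudogene of complex III, fell by 0.67 ± 0.09 in the WT knockdown and by 0.65 ± 0.09 in the isoform knockdown. Which copy such probes read is uncertain. ATP5IF1, which blocks ATP synthase from running backwards, changed by -0.25 ± 0.11 in the WT knockdown and by -0.02 ± 0.11 in the isoform knockdown on its brighter probe, and its other probe rose by 0.64 in the WT knockdown.

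Genes that build or supply the respiratory chain were read from lists chosen beside the members. Against control, 26.6% of all genes were higher and 29.7% lower in the WT knockdown, and 19.9% higher and 24.1% lower in the isoform knockdown. No list was tested against other genes, and each list's counts are to be read against these shares. Of 46 measured assembly factors, 14 were higher and 18 lower in the WT knockdown, and 10 higher and 17 lower in the isoform knockdown. NDUFAF8, an assembly factor of complex I, fell by 1.51 ± 0.12 in the WT knockdown and by 1.29 ± 0.12 in the isoform knockdown, and NDUFAF2 by 0.99 ± 0.10 and 0.80 ± 0.10. COX19, a copper-handling factor of complex IV, rose by 1.61 ± 0.15 in the WT knockdown and by 0.50 ± 0.15 in the isoform knockdown, where the call was lost without control replicate 1 or isoform knockdown replicate 3. COX19 was lower in the isoform knockdown than in the WT knockdown by 1.11 ± 0.13.

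Of 16 measured genes of mitochondrial transcription and biogenesis, 8 were higher and 4 lower in the WT knockdown, and 4 higher and 2 lower in the isoform knockdown. TFAM, which packages mitochondrial DNA and starts its transcription, averaged 11.07 ± 0.09 in the WT knockdown, 10.36 ± 0.12 in the isoform knockdown and 9.99 ± 0.04 in control cells (log2 signal, SD, n = 3, 3 and 2). TFAM rose by 1.08 ± 0.10 in the WT knockdown and by 0.37 ± 0.10 in the isoform knockdown, where the call was lost without either control or without isoform knockdown replicate 3. TFB2M, a mitochondrial transcription factor, rose by 0.94 ± 0.11 in the WT knockdown and by 0.97 ± 0.11 in the isoform knockdown. PPRC1, a coactivator of nuclear respiratory factors, rose by 0.95 ± 0.08 and 0.60 ± 0.08. YY1 fell by 0.96 ± 0.09 in the WT knockdown and by 0.27 ± 0.09 in the isoform knockdown, where the call was lost without any single control or isoform array.

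Of 15 measured genes of the citrate cycle and pyruvate dehydrogenase, 3 were higher and 5 lower in the WT knockdown, and 4 higher and 6 lower in the isoform knockdown. DLST, a subunit of the oxoglutarate dehydrogenase complex, rose by 1.18 ± 0.09 in the WT knockdown and by 0.94 ± 0.09 in the isoform knockdown. SUCLG2, of succinyl-CoA ligase, fell by 1.04 ± 0.10 in the WT knockdown and by 0.53 ± 0.10 in the isoform knockdown. MDH2, mitochondrial malate dehydrogenase, fell by 0.47 ± 0.09 and 0.41 ± 0.09, and SUCLA2 by 0.56 ± 0.09 and 0.59 ± 0.09.

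Of 14 measured genes of ubiquinone synthesis and electron carriers, 2 were higher and 8 lower in the WT knockdown, and 0 higher and 8 lower in the isoform knockdown. The median change of this list was -0.39 after the WT siRNA and -0.30 after the isoform siRNA. COQ2, which joins the ring and tail of ubiquinone, fell by 0.85 ± 0.09 in the WT knockdown and by 1.01 ± 0.09 in the isoform knockdown. COQ4 fell by 0.76 ± 0.09 and 0.72 ± 0.09. COQ6, a ubiquinone ring hydroxylase, rose by 0.94 ± 0.12 in the WT knockdown and changed by 0.21 ± 0.12 in the isoform knockdown. ETFB, of the electron transfer flavoprotein, fell by 1.08 ± 0.13 in the WT knockdown and changed by -0.24 ± 0.13 in the isoform knockdown.

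Of 10 measured genes that adjust mitochondria to low oxygen, 4 were higher and 3 lower in the WT knockdown, and 6 higher and 1 lower in the isoform knockdown. LONP1, a mitochondrial protease, rose by 0.72 ± 0.09 in the WT knockdown and by 0.35 ± 0.09 in the isoform knockdown, where the call was lost without control replicate 1. ISCU, the iron-sulfur cluster scaffold, rose by 0.54 ± 0.09 in the WT knockdown and by 0.58 ± 0.09 in the isoform knockdown. BNIP3, a receptor for removal of mitochondria, changed by 0.06 ± 0.10 in the WT knockdown and rose by 0.64 ± 0.10 in the isoform knockdown. FAM162A, a hypoxia-induced mitochondrial protein, fell by 0.76 ± 0.12 in the WT knockdown and changed by 0.12 ± 0.12 in the isoform knockdown. With median scaling the rises of LONP1 and ISCU in both knockdowns, and those of BNIP3, PPRC1, TFAM and COX19 in the isoform knockdown, were not called.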

How the data were processed

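Total RNA of 3 MTDH-WT siRNA, 3 MTDH-isoform siRNA and 3 untreated MDA-MB-231 samples was read on 1-colour Illumina expression arrays. The authors deposited a table of signal intensity with a detection p-value per probe, and a table of normalized log2 values; per the submitters' processing notes R 3.1.0 was used, and no other step is named in the sources used. The knockdown rows of the deposited intensity table did not sit at their own probe IDs and were put back by matching ranks to the authors' log2 table at all 47231 probes. Background was removed by normexp guided by detection p-values, 16 was added, and arrays were quantile-normalized and then put on the log2 scale. Probes with a detection p-value under 0.05 on at least 3 arrays were kept (22467). One linear model over 8 arrays was fitted with limma 3.58.1 in R 4.3.3 (lmFit, eBayes), with Benjamini-Hochberg adjustment over all kept probes at 0.05, and tested on simulated data. The number of arrays limits the precision.

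Members and lists were chosen with earlier results of these data known. Named with values were MTDH, up to 12 members with the largest rise and 12 with the largest fall past the threshold without overlap in each comparison with control, up to 8 each way between knockdowns, members called in opposite directions, paralog families, genes with discordant probes, and up to 4 genes per pathway list with the smallest adjusted p. Other members were named after their values were seen. Array symbols were updated through RefSeq gene tables. Alternatives were median scaling, no background correction, no filter, a stricter filter, the mean of a gene's probes, a mean-variance trend, the authors' log2 values, all 9 arrays, a replicate block and leaving out each array. Same-numbered samples did not deviate together (correlations of -0.0284 to 0.0578), so no pairing by number was seen. With groups of 2 or 3 arrays such correlations cannot exclude it.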

Additional observations from a re-analysis of the deposited data

Results flagged for a closer look

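ATP5MK was past the threshold in opposite directions in the 2 knockdowns against the same control arrays. The isoform knockdown minus WT knockdown difference was -0.8652 on the log2 scale (SE 0.09, adjusted p = 0.000118, limma), with all 3 isoform knockdown arrays below all 3 WT knockdown arrays. The probe was dim and detected on 2 of 3 isoform knockdown arrays. No group has 4 arrays, so no single array was examined for standing apart from its group.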

How the results depend on the processing

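Of 151 calls on single genes (members, MTDH and the named list genes), 75 were kept under every alternative. Median scaling moved the members to 2 higher and 43 lower with a median of -0.4396 in the WT knockdown, to 3 higher with a median of -0.3171 in the isoform knockdown, and to 2 lower with a median of 0.1295 for the isoform knockdown minus the WT knockdown. Under it COX6A1 (-0.0304) and SDHA (-0.0061) changed sign in the WT knockdown. The cause was not tested. Members higher in the isoform than in the WT knockdown numbered 21 without background correction, 21 with the authors' log2 values and 22 with a mean-variance trend. Leaving out 1 array gave 9 to 13 members higher, 17 to 28 lower and a median of -0.1419 to -0.1095 in the WT knockdown. It gave 9 to 14 higher, 17 to 25 lower and a median of -0.0933 to -0.0644 in the isoform knockdown. For the isoform knockdown minus the WT knockdown it gave 10 to 13 higher, 5 to 11 lower and a median of 0.0168 to 0.0396. The lowest counts came without control replicate 3 (17 lower, WT knockdown), control replicate 1 (9 higher, isoform knockdown) and isoform knockdown replicate 1 (5 lower, isoform minus WT). The last count was 7 without WT knockdown replicate 1, 6 without WT knockdown replicate 2, and 7 without isoform knockdown replicate 2 or isoform knockdown replicate 3. With the replicate number as a block the counts were 12 higher and 24 lower (median -0.1298) in the WT knockdown, 12 and 21 (median -0.0851) in the isoform knockdown, and 12 and 9 (median 0.0182) between knockdowns. Under the block 16 of the single-gene calls were not called, those of SDHA in the WT knockdown and of NDUFS3, NDUFA8 and UQCRHL in the isoform knockdown among them. With 2 control arrays, every comparison with control rests on few values, and dim probes such as that of ATP5MK lie near background.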
